A study of Mus musculus with 13 samples.

Results

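The 7 genes described here encode enzymes that make or handle nitric oxide and superoxide: Nos2, Xdh, Cybb, Cyba, Ncf1, Ncf4 and Sod2. They were chosen by symbol, and each matched 1 row of the table of 55487 genes by its Ensembl identifier. All 7 passed the filter on low counts, which left 15511 genes. The choice was made with the result of the comparison between the groups known, so the values of these 7 genes in that comparison are a description and carry no test of their own.

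The libraries were made from microglia, brain macrophages that seed the tissue before birth. Cells were taken from whole mouse brain on postnatal day 4 (the series text gives days 3 to 5), without perfusion and after removal of the meninges, by papain digestion and magnetic beads against CD11b, a surface protein that other myeloid cells also carry. One group came from offspring of dams that had undergone maternal immune activation (MIA) and the other from controls (CON). What was injected into the dams, the strain, the sex, the litter and any pooling of animals do not appear in the labels used here. Each group had 5 retained libraries, and the titles mark another 2 MIA libraries (MIA 6 and MIA 7) and 1 CON library (CON 6) as excluded. The labels do not say that libraries came from separate animals, so p-values measure the spread between these libraries.

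Inducible nitric oxide synthase, the product of Nos2, makes nitric oxide from arginine and is switched on in mouse macrophages by bacterial products and interferon gamma through NF-kB and STAT factors. The phagocyte NADPH oxidase makes superoxide at the membrane. Its catalytic chain is encoded by Cybb and the membrane partner that stabilises it by Cyba, while Ncf1 encodes the cytosolic organiser subunit and Ncf4 a cytosolic subunit that binds phosphoinositides. Xdh encodes xanthine dehydrogenase, which turns hypoxanthine and xanthine into uric acid and in its oxidase form yields superoxide and hydrogen peroxide. Sod2 encodes the manganese superoxide dismutase of mitochondria, which removes superoxide, so it is not a producing enzyme.

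Of the 7 genes, RefSeq promoter sequences (GRCm38.p6, 250 bases before to 50 after the start) were at hand for 4: Cybb, Cyba, Ncf1 and Sod2. The promoters of the oxidase subunits are shown because their products form 1 enzyme. Cybb lies at chrX:9469275-9469574, Cyba at chr8:122432891-122433190 and Ncf1 at chr5:134229576-134229875, all on the minus strand and printed 5′ to 3′ along the gene. Capitals mark matches, on either strand, to GAGGAA (the core letters bound by PU.1, the myeloid lineage factor), TGANTCA (AP-1) and the pair GAAA and GAAA with 2 bases between them (interferon response).
Cybb: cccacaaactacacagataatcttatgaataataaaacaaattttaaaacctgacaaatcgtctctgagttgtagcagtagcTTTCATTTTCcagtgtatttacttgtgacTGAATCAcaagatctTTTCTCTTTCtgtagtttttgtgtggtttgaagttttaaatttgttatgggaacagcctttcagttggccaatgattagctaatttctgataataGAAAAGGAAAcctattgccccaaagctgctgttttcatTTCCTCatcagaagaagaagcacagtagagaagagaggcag
Cyba: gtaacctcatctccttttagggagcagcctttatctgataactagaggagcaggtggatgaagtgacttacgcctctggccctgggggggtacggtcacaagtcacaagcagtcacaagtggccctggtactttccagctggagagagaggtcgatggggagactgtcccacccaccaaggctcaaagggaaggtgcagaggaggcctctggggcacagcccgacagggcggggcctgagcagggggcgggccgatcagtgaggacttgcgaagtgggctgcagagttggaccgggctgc
Ncf1: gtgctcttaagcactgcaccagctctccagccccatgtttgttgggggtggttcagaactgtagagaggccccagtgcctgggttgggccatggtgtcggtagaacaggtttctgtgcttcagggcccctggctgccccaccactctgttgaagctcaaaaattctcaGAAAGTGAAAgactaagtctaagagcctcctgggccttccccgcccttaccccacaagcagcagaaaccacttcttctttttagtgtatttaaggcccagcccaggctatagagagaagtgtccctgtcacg
The Cybb window held 1 GAGGAA, 1 TGANTCA and 3 matches to the GAAA pair, which may overlap. Ncf1 held 1 match to the GAAA pair, and Cyba held none of the 3 motifs. Over all 32851 promoters of the same length, 28.3% held GAGGAA, 7.81% TGANTCA and 3.44% the GAAA pair. The looser NF-kB pattern, GGG and CC with 5 bases between them, not capitalised, was present in all 4 promoters and in 50.8% of all promoters. These are matches of letters and not shown sites.

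The 13 libraries held 25387055 to 35593541 counts each. All 10 microglial markers were present in every library, with a summed level of 15554 to 19994 CPM in MIA and 23654 to 30277 CPM in CON (CPM, the count of a gene relative to all counts of its library, scaled with TMM), and all 10 fell in edgeR. All 10 endothelial markers rose, with sums of 2553 to 4315 CPM in MIA and 869 to 1410 CPM in CON. Over all 13 libraries 1 microglial marker fell and 9 endothelial markers rose, and without CON 1 and CON 2 as well these counts were 0 and 1. In that last set 8 microglial markers were lower and 10 endothelial markers higher at an unadjusted p under 0.05 in edgeR. Neuron markers summed to 107 to 159 CPM in MIA and 58.4 to 78.1 CPM in CON, and 5 of 10 rose. Of 10 markers of mural cells and fibroblasts 3 rose, with sums of 888 to 1264 CPM in MIA and 643 to 1004 CPM in CON. Markers of neutrophils, which also carry the phagocyte oxidase, summed to 61.5 to 92.4 CPM in MIA and 79.8 to 164 CPM in CON, and 0 of the 9 tested passed edgeR (2 lower at an unadjusted p under 0.05, 2 lower with DESeq2 and 0 with limma-voom). Markers of monocytes, which CD11b beads also hold, summed to 324 to 499 CPM in MIA and 164 to 223 CPM in CON, of which Fn1 alone made up 364 CPM in MIA and 147 CPM in CON on average. Of these 10 markers 2 rose and 1 fell in edgeR, and their median log2 fold change was −0.36. The part of these myeloid cells in the oxidase values was not tested. CON 1 and CON 2 stood apart from the other libraries in red blood cell transcripts, at 61.3 and 80.2 CPM against 1162 to 3053 CPM elsewhere.

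Of the 7 genes, 1 was higher and 4 were lower in MIA among the genes that edgeR called, with a Benjamini-Hochberg adjusted p under 0.05 over all genes tested, and 2 were not called. Of all genes tested 10.3% were called, 5.75% as higher and 4.58% as lower in MIA. The 5 MIA and the 5 CON libraries did not overlap for the same 5 genes, 1 above and 4 below CON, against 5.59% and 4.36% of all genes. The median log2 fold change of the 7 genes was −0.49, against −0.01 over all genes tested. As these genes were picked from this comparison, the shares describe the choice only.

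Nos2 (ENSMUSG00000020826.9) was the 1 gene that was higher. It had 10.2, 13.7, 19.9, 15.9 and 19.2 CPM in MIA 1 to MIA 5, against 3.55, 5.64, 4.60, 6.35 and 4.48 CPM in CON 1 to CON 5. Every retained MIA library lay above every retained CON library: the lowest of MIA was MIA 1 and the highest of CON was CON 4. The means were 15.8 ± 4.03 CPM in MIA and 4.93 ± 1.09 CPM in CON (SD, n = 5 each), a log2 fold change of 1.68 ± 0.22 (SE). These levels rest on 307 to 586 counts per MIA library and 103 to 209 per CON library.

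The libraries marked as excluded fell between the groups for Nos2 and did not follow their labels. MIA 6 and MIA 7 had 7.46 and 8.96 CPM, while CON 6 had 9.72 CPM and so stood above both and above all retained controls. With all 13 libraries the log2 fold change of Nos2 was 1.25 ± 0.27 (SE), still among the called genes. Of the 7 genes 3 were called in that fit (Nos2, Cyba and Ncf4), where 4.22% of all genes were. Without CON 1 and CON 2 as well, Nos2 was at 1.11 ± 0.30 and not called.

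Nos2 was high in the libraries with high endothelial sums, although among CON 1 to CON 5 its order did not follow the sum: CON 4 had the most Nos2 and CON 5 the highest sum. The 3 genes whose log2 CPM followed it most closely over the 13 libraries, out of 13853 searched, were Tspan18 (Pearson r = 0.984), S100a16 (r = 0.972) and Flt4 (r = 0.970). Flt4 encodes a receptor for vascular endothelial growth factors on endothelium. Points of such a correlation share their library, its depth and the group difference, so r describes likeness and has no p. CON 6, the control with the high Nos2 value, had 2698 CPM of endothelial markers, within the range of the retained MIA libraries. In the retained libraries these sums did not overlap, at 2553 to 4315 CPM in MIA and 869 to 1410 CPM in CON. Endothelial sum and group therefore cannot be told apart there. The part of endothelium in the Nos2 values was not tested.

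Set against the summed CPM of the 10 endothelial markers, Nos2 lost most of its difference. Per 1000 CPM of these markers it had 3.84, 5.37, 4.62, 4.93 and 5.31 CPM in MIA 1 to MIA 5, against 4.09, 5.30, 3.43, 4.98 and 3.18 CPM in CON 1 to CON 5. The groups overlapped, with means of 4.81 ± 0.62 in MIA and 4.20 ± 0.93 in CON (SD, n = 5 each), a ratio of 1.15. The excluded libraries lay in the same range, at 3.45 in MIA 6, 3.78 in MIA 7 and 3.60 in CON 6. On this scale 67.8% of all genes tested had MIA below CON without overlap and 0.0258% had MIA above CON. The other 6 genes were below CON without overlap on it. Set against the 10 microglial markers in the same way, Nos2 was at 0.890 ± 0.29 in MIA and 0.187 ± 0.049 in CON, without overlap. On that scale 31% of all genes tested had MIA above CON without overlap. Both scales were chosen after the values had been seen. Which cells carried the Nos2 transcripts was not tested.

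**Figure D1:**
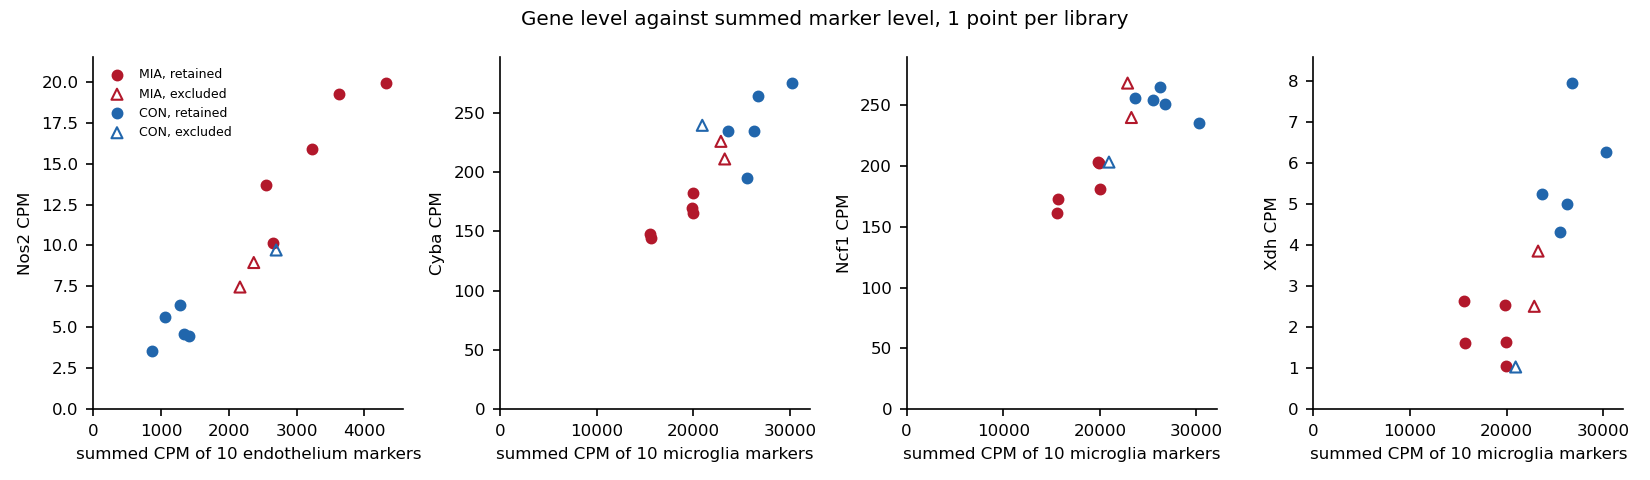
Level of Nos2, Cyba, Ncf1 and Xdh in CPM (vertical axes) against the summed CPM of 10 markers of endothelium or microglia (horizontal axes), 1 point per library, with retained libraries as filled circles and excluded libraries as open triangles. Nos2 and the endothelial sum are both higher in MIA 1 to MIA 5 and CON 6 than in CON 1 to CON 5. Cyba, Ncf1 and the microglial sum are all lower in MIA 1 to MIA 5 than in CON 1 to CON 5. Among CON 1 to CON 5 the order of Ncf1 does not follow that sum: CON 2 has the highest sum and the least Ncf1. The points of Xdh in MIA 1 to MIA 5 and CON 6 lie at or under 2.65 CPM.

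The 3 called oxidase subunits were lower in MIA by like amounts. Cyba (ENSMUSG00000006519.11) had 169.95, 182, 165, 145 and 148 CPM in MIA 1 to MIA 5, against 195, 275, 234, 235 and 265 CPM in CON 1 to CON 5. The groups did not overlap, and the closest pair was MIA 2 and CON 1. Means were 162 ± 15.7 CPM in MIA and 241 ± 31.2 CPM in CON, a log2 fold change of −0.57 ± 0.10 (SE). MIA 6, MIA 7 and CON 6 had 226, 211 and 239 CPM, all above the retained MIA libraries.

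Ncf1 (ENSMUSG00000015950.13) had 203, 202, 181, 173 and 161 CPM in MIA 1 to MIA 5, against 254, 235, 265, 256 and 251 CPM in CON 1 to CON 5. No retained MIA library reached the lowest control, CON 2. The log2 fold change was −0.45 ± 0.08 (SE), with means of 184 ± 18.4 CPM in MIA and 252 ± 10.8 CPM in CON (SD, n = 5 each). The excluded libraries crossed the groups: MIA 6 and MIA 7 had 268 and 239.9 CPM, within or above the control range, and CON 6 had 203 CPM, level with MIA 1. With all 13 libraries the log2 fold change was −0.26 ± 0.11 (SE) and Ncf1 was no longer called. In GENCODE M21, 408 bases of Ncf1 exons overlap exons of Gtf2ird2 on the other strand, and a Smart-Seq2 library does not mark the strand, so reads there cannot be told apart and the level of Ncf1 is uncertain to that extent. Gtf2ird2 itself was at 10.5 ± 1.85 CPM in MIA and 15.0 ± 2.34 CPM in CON.

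Ncf4 (ENSMUSG00000071715.12) had 21.6, 22.8, 22.7, 21.03 and 19.1 CPM in MIA 1 to MIA 5, against 26.4, 28.03, 39.6, 32.5 and 32.3 CPM in CON 1 to CON 5. No retained MIA library reached the lowest control, CON 1, and the retained MIA libraries varied less (SD 1.53 CPM) than the controls (SD 5.14 CPM, n = 5 each). Its log2 fold change of −0.57 ± 0.12 (SE) was −0.48 ± 0.10 with all 13 libraries and −0.58 ± 0.11 when CON 1 and CON 2 were also left out. It was the 1 gene of the 7 still called in that last set, in which 0.561% of all genes were called. MIA 6, MIA 7 and CON 6 had 27.2, 22.6 and 29.1 CPM.

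Cybb (ENSMUSG00000015340.10), the catalytic chain, was not called. It had 47.6, 34.8, 26.0, 48.1 and 51.1 CPM in MIA 1 to MIA 5, against 49.9, 56.8, 55.6, 46.4 and 82.2 CPM in CON 1 to CON 5. The groups overlapped, MIA 3 was lowest and CON 5 highest. Means were 41.5 ± 10.7 CPM in MIA and 58.2 ± 14.1 CPM in CON, and the log2 fold change was −0.49 ± 0.20 (SE), close in size to those of the called subunits with a wider error. Markers of border-associated macrophages, which line the vessels and meninges, summed to 1965 CPM in MIA and 1995 CPM in CON on average. Their sum was lowest in MIA 3 (912 CPM) and was 2349 CPM in CON 5, the highest retained control. MIA 1 (2425 CPM), MIA 5 (2366 CPM) and MIA 6 (2571 CPM) had higher sums than CON 5, with Cybb at 47.6, 51.1 and 50.7 CPM. Of these 10 markers 0 passed edgeR (0 at an unadjusted p under 0.05, and 0 with DESeq2 or limma-voom), and their part in the level of Cybb was not tested.

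Scaled to 1000 CPM of the 10 microglial markers, the 4 oxidase subunits overlapped between the groups. Cyba was at 8.94 ± 0.51 in MIA and 9.09 ± 0.93 in CON (SD, n = 5 each), and Ncf1 at 10.2 ± 0.71 in MIA and 9.61 ± 1.15 in CON. Ncf4 was at 1.19 ± 0.10 in MIA and 1.21 ± 0.24 in CON, and Cybb at 2.36 ± 0.85 in MIA and 2.20 ± 0.50 in CON. On this scale 31% of all genes tested had MIA above CON without overlap and 0.0129% had MIA below CON. In these bulk libraries fewer microglia and less RNA per microglial cell cannot be told apart.

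Ratios among the subunits overlapped between the groups. The log2 ratio of Ncf1 to Ncf4 CPM was 3.10 ± 0.10 in MIA and 3.00 ± 0.19 in CON, and that of Cybb to Cyba was −2.00 ± 0.50 in MIA and −2.07 ± 0.26 in CON (SD, n = 5 each). Per kilobase of the longest coding transcript in GENCODE M21, Cyba had the highest level of the 7 genes, at 218 ± 21.1 CPM in MIA and 324 ± 41.9 CPM in CON. Ncf1 followed at 63.9 ± 6.38 and 87.6 ± 3.75 CPM per kilobase in MIA and CON. Cybb was at 8.74 ± 2.26 CPM per kilobase in MIA and 12.25 ± 2.96 in CON, and Nos2 at 3.77 ± 0.96 in MIA and 1.18 ± 0.26 in CON. Lengths are approximate, since the labels do not name the annotation behind the counts.

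Over the same 13 libraries Cyba followed 3 genes of lysosomal enzymes, Ctsb (r = 0.974), Ctsa (r = 0.970) and Scpep1 (r = 0.966). Ncf1 had Hist1h2bc (r = 0.954), Ptgr1 (r = 0.940) and the microglial lectin gene Siglech (r = 0.936). Ncf4 had Mzt2 (r = 0.949), the immunoproteasome gene Psmb9 (r = 0.944) and Aagab (r = 0.934), and Cybb the scavenger receptor gene Stab1 (r = 0.899), Tlr8 (r = 0.893) and Erlin1 (r = 0.874).

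Xdh (ENSMUSG00000024066.9) was scarce and lower in MIA. It had 2.55, 1.63, 1.05, 1.61 and 2.65 CPM in MIA 1 to MIA 5, against 4.31, 6.26, 5.01, 5.26 and 7.95 CPM in CON 1 to CON 5. Of the retained libraries the highest of MIA, MIA 5, was below the lowest of CON, CON 1, and the log2 fold change was −1.60 ± 0.30 (SE). Counts behind these values were 31 to 77 per MIA library and 125 to 252 per CON library. CON 6 had 28 counts, or 1.03 CPM, below every other library, while MIA 6 and MIA 7 had 2.51 and 3.85 CPM. With all 13 libraries the log2 fold change was −1.13 ± 0.37 (SE) and Xdh was not called, and CON 6 was the library on the far side of the groups.

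Xdh is known as an enzyme of capillary endothelium in several tissues. The libraries with the least Xdh, MIA 3 and CON 6, had 4315 CPM and 2698 CPM of endothelial markers, more than any retained control. The same held for the other MIA libraries, such as MIA 7, with 3.85 CPM of Xdh and 2368 CPM of these markers. The part of endothelium in the Xdh values was not tested. On the scale of 1000 CPM of microglial markers Xdh was at 0.107 ± 0.045 in MIA and 0.217 ± 0.049 in CON, a ratio of 0.494. The groups met at their edges on this scale, where MIA 5 had 0.170 and CON 1 had 0.169. The genes most like Xdh were Tmem179b (r = 0.912), Oxa1l, a mitochondrial membrane insertase gene (r = 0.896), and Rnasek (r = 0.893).

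Sod2 (ENSMUSG00000006818.5) was not called. It had 106, 90.8, 88.3, 90.6 and 83.8 CPM in MIA 1 to MIA 5, against 92.8, 74.1, 71.2, 95.5 and 79.6 CPM in CON 1 to CON 5. The groups overlapped, with a log2 fold change of 0.15 ± 0.10 (SE), and MIA 6, MIA 7 and CON 6 had 80.5, 83.6 and 77.4 CPM. Its 3 closest genes, Eno2 (r = 0.876), Steap2 (r = 0.865) and Elovl7 (r = 0.854), were not called either. In GENCODE M21 2.79% of the 50-base stretches of its longest transcript recur in other genes, so its level is less certain than that of genes with unshared sequence. Relative to 1000 CPM of microglial markers Sod2 was at 5.10 ± 0.59 in MIA and 3.16 ± 0.66 in CON, without overlap, as were 31% of all genes tested with MIA above CON.

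**Figure D2:**
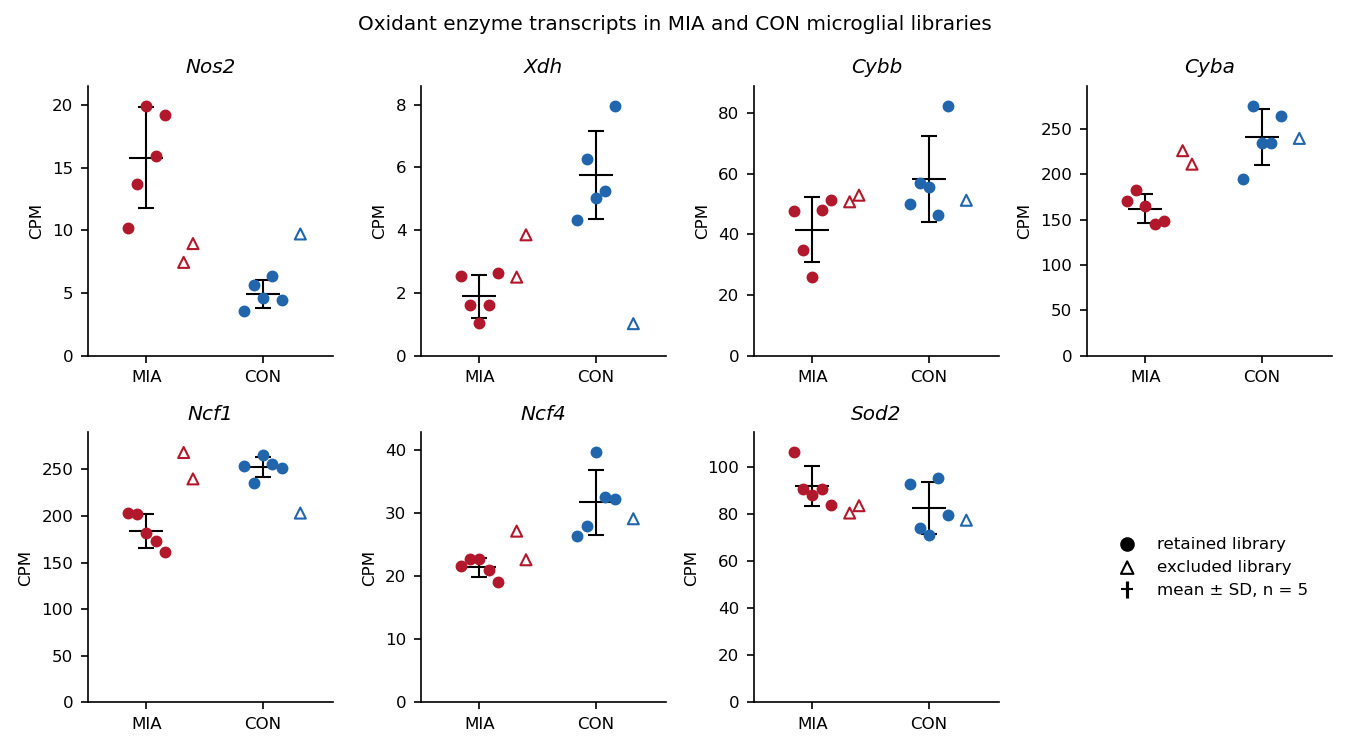
CPM (vertical axes, from 0) of the 7 genes in each library, MIA left of CON, with filled circles for retained libraries, open triangles for excluded libraries and bars for the mean ± SD of the 5 retained libraries. Nos2 is above and Xdh, Cyba, Ncf1 and Ncf4 are below the retained controls in all 5 retained MIA libraries, while the triangles of Nos2, Xdh and Ncf1 cross their groups. The triangles of Cyba in MIA 6 and MIA 7 (226 and 211 CPM) and of Ncf4 in MIA 6 (27.2 CPM) lie within the retained control range.

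**Figure D3:**
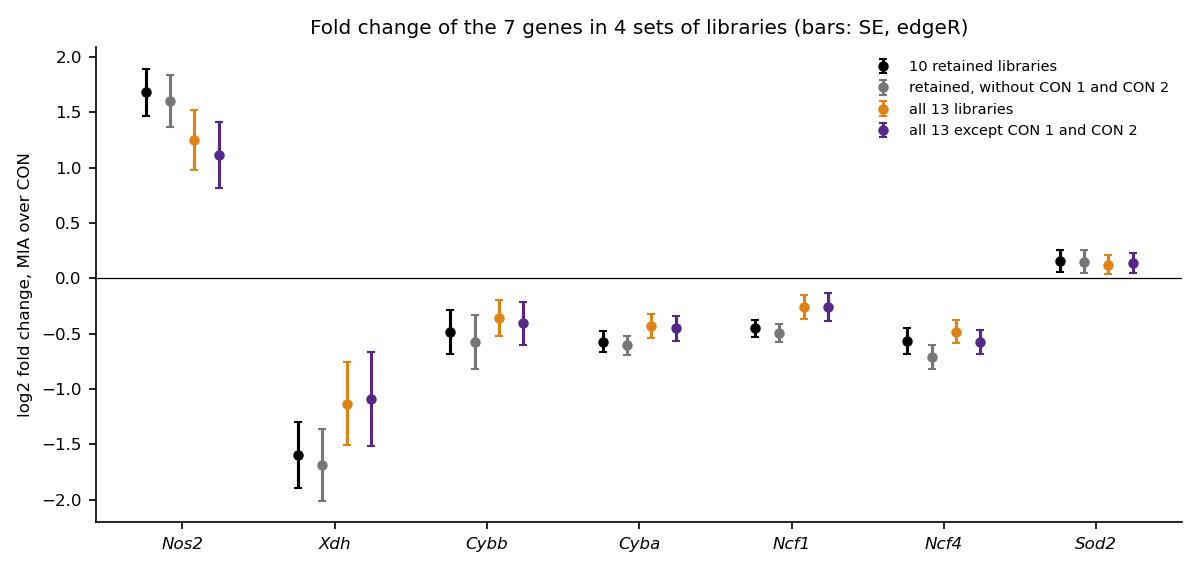
Log2 fold change, MIA over CON, of the 7 genes with the edgeR SE as bars, in the 10 retained libraries, without CON 1 and CON 2, in all 13 libraries, and in all 13 except CON 1 and CON 2. Every gene keeps its sign in the 4 sets, and Nos2, at 1.68 in the retained and 1.11 in the last set, and Xdh move most.

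Other parts of the same pathways were read from 5 lists drawn up by pathway. Of 88 such genes 79 were tested. In edgeR 8 rose and 11 fell, together 24.1% against 10.3% of all genes tested. As the lists were chosen with earlier results of these data known, these shares describe the lists only. Omitting CON 2, MIA 3, MIA 4 or MIA 5 singly left 4 or 5 that rose, and 9 to 11 that fell. With all 13 libraries 2 rose and 6 fell, where 4.22% of all genes were called. When CON 1 and CON 2 were also left out 0 were called (10 higher and 11 lower at an unadjusted p under 0.05), where 0.561% of all genes were.

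Among 15 partners of the NADPH oxidases 8 were tested, of which 3 fell and 1 rose, with a median log2 fold change of −0.20. The other 7, Nox1, Nox3, Noxa1, Duox1, Duox2, Duoxa1 and Duoxa2, were too scarce to test. Rac2, the small GTPase of the phagocyte oxidase, fell to 202 ± 17.9 CPM in MIA, against 277 ± 14.5 CPM in CON (log2 fold change −0.46 ± 0.08 SE, edgeR adjusted p = 0.00194). Prkcd, a kinase that phosphorylates the organiser subunit, was at 155 ± 12.8 and 223 ± 15.3 CPM in MIA and CON (edgeR adjusted p = 0.000879), and the proton channel gene Hvcn1, which balances the charge the oxidase moves, had a log2 fold change of −0.59 ± 0.10 (edgeR adjusted p = 0.00207). In none of the 10 fits that left out 1 library did these 3 genes lose their call, but with all 13 libraries Rac2 did (edgeR adjusted p = 0.0511).

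Rac1, the widely expressed GTPase, was at 849 ± 53.9 CPM in MIA and 874 ± 26.9 CPM in CON and did not pass (adjusted p = 0.777 in edgeR). Nox4, an oxidase of other cell types that makes hydrogen peroxide, rose to 5.13 ± 2.65 CPM in MIA, against 1.95 ± 0.77 CPM in CON (edgeR adjusted p = 0.0371). That call was lost without CON 2, CON 4, MIA 3 or MIA 5, with edgeR adjusted p as high as 0.112, and without CON 1 and CON 2 together (0.0990). Scaled to the microglial markers, Rac2, Prkcd and Hvcn1 overlapped between the groups, at 11.2 ± 0.64 in MIA and 10.5 ± 0.68 in CON for Rac2 (SD, n = 5 each). On this scale 0.0129% of all genes tested had MIA below CON without overlap.

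Of 19 genes of nitric oxide and arginine metabolism, all tested, 5 rose and 0 fell in edgeR (1 lower at an unadjusted p under 0.05, and 0 with DESeq2 or limma-voom), with a median log2 fold change of 0.35. Nos3, the endothelial synthase, rose to 125 ± 30.6 CPM in MIA, against 45.4 ± 10.4 CPM in CON (log2 fold change 1.47 ± 0.19 SE, edgeR adjusted p = 0.000697). Slc7a1, a carrier of arginine into cells, rose to 366 ± 79.5 CPM in MIA, against 134 ± 22.3 CPM in CON (edgeR adjusted p = 0.000164). Nostrin, which binds the endothelial synthase, had a log2 fold change of 1.12 ± 0.18, and Ddah1, which breaks down methylarginine inhibitors of the synthases, one of 0.93 ± 0.14 (SE; edgeR adjusted p = 0.00148 and 0.00105).

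Ass1, which rebuilds arginine from citrulline, was at 6.98 ± 1.58 CPM in MIA and 3.81 ± 0.71 CPM in CON (edgeR adjusted p = 0.0217), and lost its call without CON 3, MIA 4 or MIA 5, with edgeR adjusted p as high as 0.0748. Qdpr, of biopterin recycling, was at 100.3 ± 6.13 CPM in MIA and 102 ± 13.6 CPM in CON. Scaled to 1000 CPM of endothelial markers, Nos3 was at 38.2 ± 1.67 in MIA and 38.0 ± 3.78 in CON. Slc7a1 was at 112 ± 8.23 in MIA and 113 ± 5.59 in CON. The other called genes of this list were lower in MIA on this scale. Their ratios of the MIA mean to the CON mean were 0.658 for Ass1, 0.666 for Ddah1 and 0.809 for Nostrin. The groups overlapped for each of these genes. With all 13 libraries Nos3 and Slc7a1 had edgeR adjusted p of 0.0666 and 0.0691, while Ddah1 and Nostrin kept their calls (0.0201 and 0.0293).

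Around Xdh, 0 of the 10 tested genes of purine breakdown and the molybdenum cofactor passed edgeR (1 lower at an unadjusted p under 0.05, and 0 with DESeq2 or limma-voom), and the median log2 fold change was −0.05. Uox and Urad, of urate breakdown, were too scarce to test. The purine phosphorylase gene Pnp was at 172 ± 10.8 CPM in MIA and 189.5 ± 20.9 CPM in CON, Hprt, of purine salvage, at 172 ± 13.2 CPM in MIA and 169 ± 21.03 CPM in CON, and Mocs2, of cofactor synthesis, at 24.8 ± 2.79 CPM in MIA and 25.5 ± 1.98 CPM in CON.

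Among 26 genes that remove superoxide and peroxides, 2 rose and 4 fell, with a median log2 fold change of −0.01, equal to that of all genes. Gpx3, a secreted glutathione peroxidase, fell to 122 ± 19.2 CPM in MIA, against 199 ± 33.8 CPM in CON (edgeR adjusted p = 0.00337), and the heme oxygenase gene Hmox1 to 149 ± 14.3 CPM in MIA, against 215 ± 36.1 CPM in CON (edgeR adjusted p = 0.0103). Txnrd2 and Prdx5 of mitochondria had log2 fold changes of −0.52 ± 0.13 and −0.26 ± 0.06 (SE; edgeR adjusted p = 0.0240 and 0.0143). The peroxiredoxin gene Prdx2 and the catalase gene Cat rose by 0.24 ± 0.06 and 0.22 ± 0.06 on the log2 scale (errors are SE, with adjusted p of 0.0265 and 0.0453 in edgeR).

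Several of these calls were lost when a single library was left out. Cat passed in only 1 of the 10 fits that omitted a library, the fit without CON 1 (edgeR adjusted p up to 0.114 in the others). Prdx2 failed in 7, all except those without CON 1, CON 4 or MIA 2 (up to 0.0830). Txnrd2 failed without CON 2, CON 3, MIA 1, MIA 4 or MIA 5 (up to 0.0764), and Prdx5 without MIA 5 (0.0560). With all 13 libraries 0 of the 26 genes were called in edgeR (3 higher and 5 lower at an unadjusted p under 0.05), where 4.22% of all genes were. Gpx3 and Hmox1 were then at edgeR adjusted p of 0.141 and 0.489. Cat, Prdx2, Txnrd2 and Prdx5 were at 0.110, 0.0957, 0.124 and 0.0824. The most abundant genes of the list, Ucp2 at 875 ± 95.3 CPM in MIA and 1139 ± 228 CPM in CON, Prdx1 at 499.8 ± 11.1 and 506 ± 52.8 and Gpx1 at 368 ± 42.0 and 425 ± 59.7 in the same order, did not pass.

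Upstream of Nos2, 4 of 16 genes fell and 0 rose in edgeR (0 higher at an unadjusted p under 0.05, and 0 with DESeq2 or limma-voom), while Nos2 itself was higher. Ifngr1 and Ifngr2, both chains of the interferon gamma receptor, fell to 353 ± 31.6 and 129 ± 9.79 CPM in MIA, against 563 ± 98.5 and 166 ± 9.75 CPM in CON (edgeR adjusted p = 0.00207 and 0.00654). Tlr4, the lipopolysaccharide receptor, had a log2 fold change of −0.65 ± 0.14 (edgeR adjusted p = 0.0118), and Irf8, a myeloid transcription factor, one of −0.52 ± 0.09 (SE; edgeR adjusted p = 0.00220). All 4 kept their calls in the 10 fits without 1 library and with all 13 libraries. When CON 1 and CON 2 were left out of these 13, 0 of the 16 genes were called (5 lower at an unadjusted p under 0.05), where 0.561% of all genes were. Per 1000 CPM of microglial markers the groups overlapped for the 4 genes. On this scale 0.0129% of all genes tested had MIA below CON without overlap. Hif1a, at 297 ± 24.1 CPM in MIA and 293 ± 38.4 CPM in CON, and the coreceptor gene Cd14, at 239 ± 58.3 CPM in MIA and 333 ± 196 CPM in CON, did not pass. Cd14 was at 127 and 135 CPM in CON 1 and CON 2, against 415, 410 and 576 CPM in CON 3 to CON 5. In the retained libraries without CON 1 and CON 2, 6 of the 16 genes fell and 0 rose in edgeR, where 12.2% of all genes were called. The median log2 fold change of the list was −0.13.

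**Figure D4:**
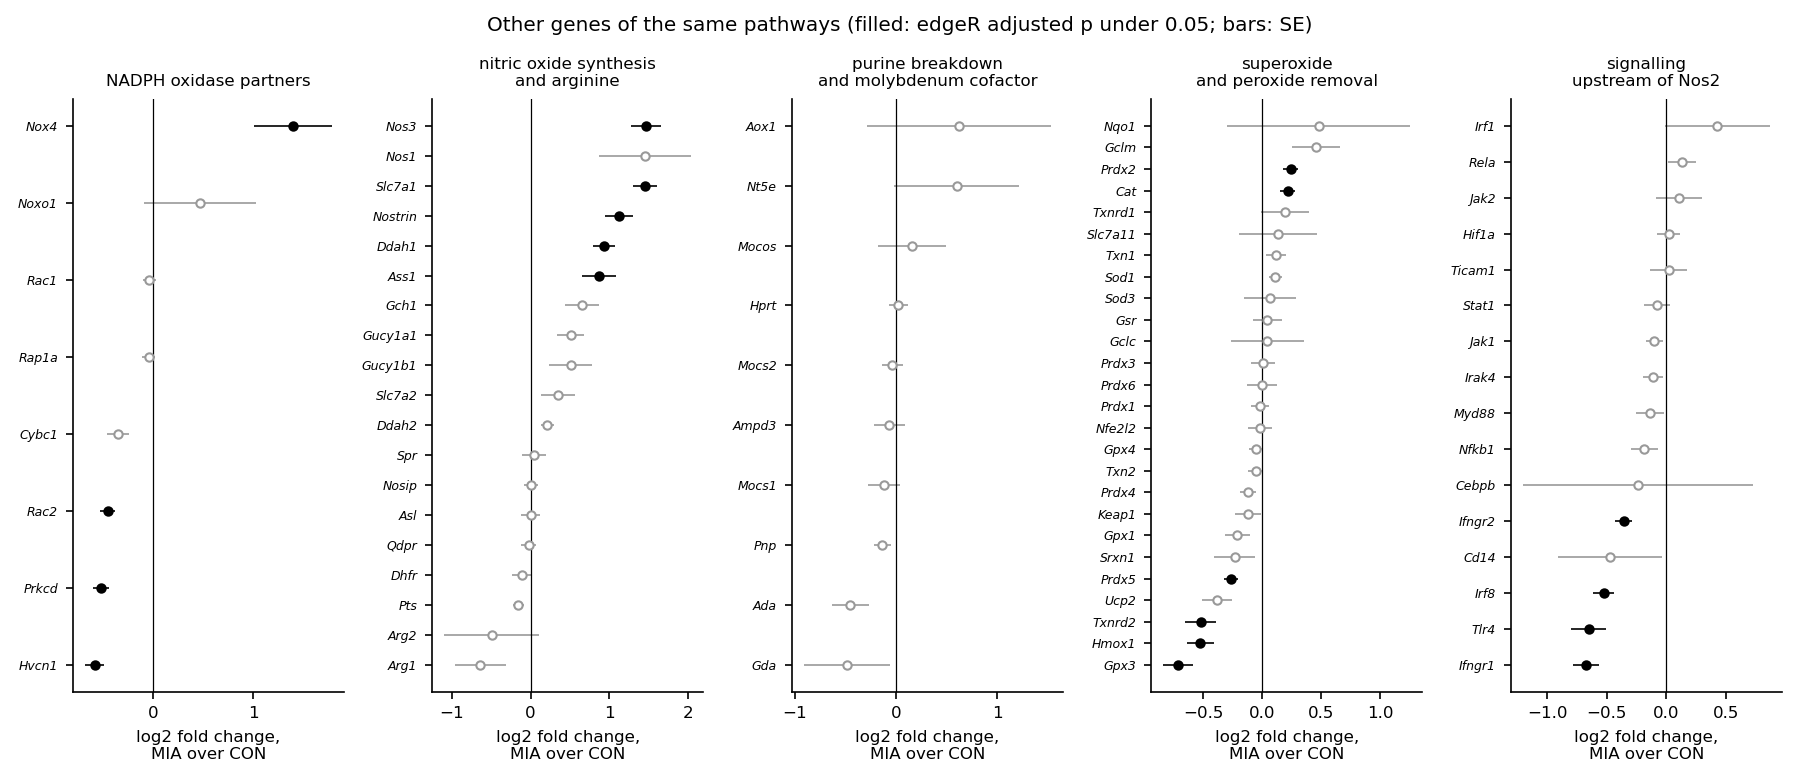
Log2 fold change, MIA over CON, with the edgeR SE as bars, of the 79 tested genes in 5 lists of related pathways, filled where the edgeR adjusted p was under 0.05. The filled points of nitric oxide metabolism all lie right of 0 (5 genes), those of signalling upstream of Nos2 all left of 0 (4 genes), and the purine list has none.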

How the data were processed

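Per the labels, libraries were prepared with a modified Smart-Seq2 protocol, primed on poly(A) tails, and a tagmentation kit. Per the submitters' processing notes RSEM, STAR and DESeq2 were used, with no role or version; the sources used here name no genome build and no annotation release. The authors deposited 1 table of expected counts (estimated, not scaled between libraries) for 55487 genes and 13 libraries. Symbols came from Ensembl IDs, 55141 of which matched. Rounding to whole counts shifted values by 0.5 or less.

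The 10 retained libraries entered a robust quasi-likelihood fit in edgeR 4.0.16 under R 4.3.3 (TMM, filterByExpr, no term besides group; MIA over CON), with Benjamini-Hochberg adjustment over 15511 genes. CPM values are scaled with TMM; log2 CPM has a prior count of 2. Each SE was taken from the fold change and the root of its F statistic. The fit was tested on simulated data, in which 24.5% of genes changed by 1.5-fold and 55.1% of those changed by 2-fold were called. DESeq2 1.42.0, limma 3.58.1 (voom), other scalings, filters, a replicate block and other sets of libraries were alternatives.

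The members and lists were chosen with earlier results of these data known. A gene of the NADPH oxidase list is not reported here and was left out of its counts. All 7 members, all called list genes and up to 3 of the most abundant of each list are named. For each member the 3 named genes with the highest Pearson r over the 13 libraries are given. No pair of libraries of a group agreed within sampling noise (chi-square per gene at least 14.6). Reads carried no molecular identifiers.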

Additional observations from a re-analysis of the deposited data

Results flagged for a closer look

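Cybb in CON 5, at 82.2 CPM, stood apart from the other retained controls, which lay between 46.4 and 56.8 CPM; the gap took 0.711 of the range of the group, against a critical value of 0.71. It was 1 of 14 sets of 5 libraries examined, and chance flags about 5% of such sets.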

How the results depend on the processing

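Fold changes of all 7 members kept their sign in each other scaling, filter, test and set of libraries listed for the counts (20, or 19 for Xdh, which the filter of 10 CPM in 5 libraries removed). Calls of members changed in the fits with excluded libraries: Xdh and Ncf1 were not called with all 13 libraries, nor were these, Nos2 and Cyba when CON 1 and CON 2 were left out as well. Without 1 retained library the log2 fold change of Nos2 ran from 1.58 to 1.80, of Xdh from −1.75 to −1.45, of Cyba from −0.64 to −0.52, of Ncf1 from −0.49 to −0.41 and of Ncf4 from −0.63 to −0.48. Per CPM of microglial markers, an alternative chosen after seeing the data, the log2 ratio of Ncf1 turned to 0.083 and that of Cybb, not called, to 0.10.

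Of all genes 892 were higher and 710 lower in MIA, and 1036 and 496 with total counts in place of TMM; with all 13 libraries 424 and 235, and with all 13 except CON 1 and CON 2 53 and 37. Related pathway genes called numbered 8 higher and 11 lower; with all 13 libraries 2 and 6, and with all 13 except CON 1 and CON 2 0 and 0. The cause was not tested. Leaving out 1 retained library gave 672 to 1238 higher and 365 to 1025 lower genes, and 4 to 8 higher and 9 to 13 lower pathway genes. Lower genes numbered 365 without MIA 5, 382 without MIA 4, 464 without CON 2 and 1025 without CON 1, and pathway genes called higher were 4 without MIA 5 and 5 without CON 2, MIA 3 or MIA 4.

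Same-numbered libraries had correlations of deviations of 0.058 to 0.302, not all over 0.1. MIA 1 and MIA 3 were most like the control of their own number, and MIA 2, MIA 4 and MIA 5 most like another. Whether the numbers mark pairs cannot be told from these values, and the main fit had no term for them. With the replicate block 900 genes were higher and 624 lower, and 9 and 13 pathway genes; the same 5 members were called, with Nos2 at 1.67 and Xdh at −1.64.

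Depth limits Xdh most, at 28 to 252 counts per library; a count of 3, the limit a count of 0 allows, was 0.0874 to 0.117 CPM, and covers counting error only.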
